A study of Mus musculus with 12 samples.

Results

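Proliferating progenitors (PP) of the mouse cortex were described here by where 5-methylcytosine (5mC) and 5-hydroxymethylcytosine (5hmC) stood relative to each other, to genes and to gene expression. The members were all 55085 peaks of 5mC and all 47478 peaks of 5hmC, in total 102563 regions, each with a level in PP, and these are all the peaks of both marks in the series. PP have 4 of the 12 samples, an immunoprecipitate and an input for each mark. The PP levels are those of the immunoprecipitates, and the sources used here do not state that they were corrected for the input. The cells were sorted at E14.5 (embryonic day) from cortices of Btg2 RFP/Tubb3 GFP double reporter mice, a genotype that all groups share. PP (labelled Btg2-/Tubb3- and neuronal stem cells) carried neither fluorescence, differentiative progenitors (DP) were RFP+/GFP-, and neurons were GFP+ with or without RFP. PP are thus the cells without a reporter, and any other reporter-negative cell of the dissected cortex would fall in the same gate. DNA of PP, DP and neurons, each with its own barcode, went into a common immunoprecipitation with an antibody against 5mC or 5hmC. Each level is log2 of a normalized read level per peak, averaged by the authors over the 3 replicates that their methods state. The tables hold no replicate values, input signal or read counts, so no spread between replicates can be given, no test was made, and the depth behind a value is unknown. Because the 2 antibodies have no common scale, peaks or genes were compared by their percentile, the share of the peaks or genes of the same mark that lie below.

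5mC is written by the DNA methyltransferases, with Dnmt1 copying it to the new strand at replication. Tet enzymes oxidize 5mC to 5hmC, which can be a step towards removal of the mark or can persist, and brain tissue is known for its high 5hmC. A stretch of DNA can carry both marks where its cytosines or its cells differ. Methylation of a promoter rich in CpG accompanies silencing, whereas methylation inside a gene body is common in transcribed genes.

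The deposited expression of genes near a peak went with the names of the cell types. The authors took it from earlier RNA-seq of these cell types, so it does not check the cells whose DNA was used here. All 7 progenitor markers with a peak had their highest expression in PP, among them Pax6 (PP 25720, DP 15955, neurons 1212, on an expression scale that the tables do not name) and the intermediate filament gene Vim (86730, 42949 and 7540). The sum over the progenitor markers was 229023 for PP, 116902 for DP and 13896 for neurons. Markers of later cells were also expressed in PP of that RNA-seq, with Tubb3 at 3814 against 105657 in neurons and Eomes at 10188 against 50497 in DP. Whether this RNA came from later cells or from PP themselves was not tested. The 4 neuronal markers with a peak summed to 7994 in PP and 308050 in neurons, and the 4 markers of intermediate progenitors to 45780 in PP and 123602 in DP. Pecam1, Cldn5 and Csf1r, markers of endothelial cells and microglia, stood between 78.4 and 246.8 in PP, summing to 403.9 there and 97.3 in neurons. Whether the PP used here held such cells, and what they would add to the levels of either mark, was not tested. The genes for the enzymes were expressed in PP, with Dnmt1 at 18656, Dnmt3a at 16876, Uhrf1, which recruits Dnmt1 at replication forks, at 14998, Tet3 at 16371, Tet1 at 4670 and Tet2 at 4689.

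The levels of 5mC in PP ranged from 1.53 to 12.11 with a median of 5.06, and those of 5hmC from -0.05 to 10.42 with a median of 4.72. The middle of the distribution was narrower for 5hmC, with an interquartile range of 0.93 against 1.17 for 5mC. Its lower tail was longer, since 2597 of the 5hmC peaks (5.47%) but only 55 of the 5mC peaks (0.0998%) had a level under 3. At the lowest level, 105 peaks of 5hmC were tied, whereas a level over 8 was reached by 164 peaks of 5mC and 28 of 5hmC. Peaks entered the tables by being called in all replicates of some cell type, so a peak with little signal in PP can be listed for its signal in DP or neurons.

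To show what DNA carried the marks at gene starts, the stretches below are the parts covered by a peak of RefSeq promoter windows, which run from 250 bases before to 50 bases after a gene start (mm10, GRCm38.p6). Windows were taken as covered from an overlap of 75 bases. Shown are the 3 protein-coding genes with the highest PP level in each mark on a subset of the autosomes. Autosomal genes outside this subset were not considered. The peak's nearest gene had to be the same gene. An X-linked promoter with both marks follows. CpG dinucleotides, the sites of the modification, are in capitals, and all are written 5′ to 3′ along the gene.
Acacb, 5mC, chr5:114165328-114165483, plus strand: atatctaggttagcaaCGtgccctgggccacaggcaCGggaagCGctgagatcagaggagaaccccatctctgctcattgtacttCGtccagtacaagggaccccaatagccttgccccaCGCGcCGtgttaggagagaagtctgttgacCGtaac
Adad2, 5mC, chr8:119612556-119612734, plus strand: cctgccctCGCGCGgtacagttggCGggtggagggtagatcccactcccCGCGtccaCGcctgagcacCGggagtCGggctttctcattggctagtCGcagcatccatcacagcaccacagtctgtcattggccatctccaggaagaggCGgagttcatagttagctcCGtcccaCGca
Csl, 5mC, chr10:99759609-99759684, minus strand: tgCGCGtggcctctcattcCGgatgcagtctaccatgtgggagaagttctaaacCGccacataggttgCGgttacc
Prpsap2, 5hmC, chr11:61762202-61762338, minus strand: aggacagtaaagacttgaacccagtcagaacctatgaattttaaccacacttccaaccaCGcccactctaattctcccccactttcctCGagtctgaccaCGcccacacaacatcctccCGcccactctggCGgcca
Klhl35, 5hmC, chr7:99465754-99465847, plus strand: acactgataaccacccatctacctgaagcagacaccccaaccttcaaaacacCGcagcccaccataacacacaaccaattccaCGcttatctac
Slc29a1, 5hmC, chr17:45595852-45596028, minus strand: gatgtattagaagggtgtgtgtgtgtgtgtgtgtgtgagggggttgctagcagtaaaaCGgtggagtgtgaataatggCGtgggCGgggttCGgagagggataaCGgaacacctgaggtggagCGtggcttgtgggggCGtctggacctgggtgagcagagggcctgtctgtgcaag
Hdac6, 5mC, chrX:7947840-7948076, minus strand: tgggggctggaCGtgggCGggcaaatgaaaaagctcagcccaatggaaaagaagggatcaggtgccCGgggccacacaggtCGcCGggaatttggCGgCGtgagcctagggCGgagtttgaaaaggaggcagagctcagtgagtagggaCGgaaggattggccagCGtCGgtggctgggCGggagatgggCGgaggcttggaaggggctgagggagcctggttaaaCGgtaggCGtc

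Adad2, a gene known for its expression in testis, had a 5mC level of 7.19 (DP 7.16, neurons 7.21) over 13 CpG in 179 bases, and its expression was 1.7 in PP. Acacb, an acetyl-CoA carboxylase, had 5mC at 7.54, 7.67 and 7.48 over 8 CpG and an expression of 178.5. Csl, a relative of citrate synthase expressed at 475.5, had 6.996, 7.21 and 6.90 over 5 CpG in 76 covered bases. The 5mC level of each of these promoters was similar in the 3 cell types. As many CpG as in their whole windows, which held 10 (Acacb), 18 (Adad2) and 9 (Csl), were found in 43.7%, 29.9% and 46.0% of all windows. Of the 5hmC promoters, Prpsap2 had a level of 7.36 (DP 7.34, neurons 6.99) at an expression of 1104. Slc29a1, a nucleoside transporter, had 6.63, 6.76 and 6.20 at an expression of 1387. Klhl35 had 6.68, 6.60 and 6.41 at an expression of 9.2, which was 392.8 in neurons. The windows of Prpsap2, Slc29a1 and Klhl35 held 17, 12 and 7 CpG, and 31.6%, 39.8% and 52.4% of all windows held as many. The stretches covered by 5hmC held 5 CpG in 137 bases (Prpsap2), 7 in 177 (Slc29a1) and 2 in 94 (Klhl35).

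5mC peaks covered 245 of 32585 promoter windows (0.752%) and 5hmC peaks covered 283 (0.868%), and 40 windows held both. The string CG, counted on 1 strand since it reads the same on both, occurred a median of 9 times in windows with 5mC, 8 times in those with 5hmC and 7 times in all windows. More than 20 CpG were held by 8132 of all 32585 windows, by 11 of those with 5mC (4.49%) and by 19 of those with 5hmC (6.71%). Spearman's rho between the CpG number and the level was 0.21 over the 245 covered windows of 5mC and -0.13 over the 283 of 5hmC, where neighbouring windows can share a peak. Over single chromosomes, which hold few such windows each, the rho had an SD of 0.41 and 0.30, larger than either value. Above the median CpG number the median percentile of the peaks was 64.7 for 5mC and 49.8 for 5hmC, and at or below it 44.7 and 64.0.

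Genes with a mark at the transcription start site (TSS) had a lower median expression than all genes with that mark, and more so for 5mC than for 5hmC. Peaks within 0.5 kb of a TSS were next to 877 genes for 5mC and 653 genes for 5hmC, whose median expression in PP was 45.8 and 140.5, against 478.3 and 415.5 for all genes with a 5mC or a 5hmC peak. Among these genes, 261 (29.8%) with 5mC and 153 (23.4%) with 5hmC were expressed under 10, and 112 (12.8%) and 190 (29.1%) over 1000. On the autosomes alone the medians were 33.8 and 118.3. Over single chromosomes the median had an SD of 72.1 for 5mC and 207.7 for 5hmC, each larger than the median itself. From 0.5 to 1 kb downstream of the TSS the medians were 68.0 for the 365 genes with 5mC and 307.4 for the 433 genes with 5hmC. From 2 to 5 kb downstream they were 663.9 and 623.7. Genes with 5mC up to 0.5 kb upstream stood at a median of 33.8 (DP 31.7, neurons 31.6).

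**Figure D1:**
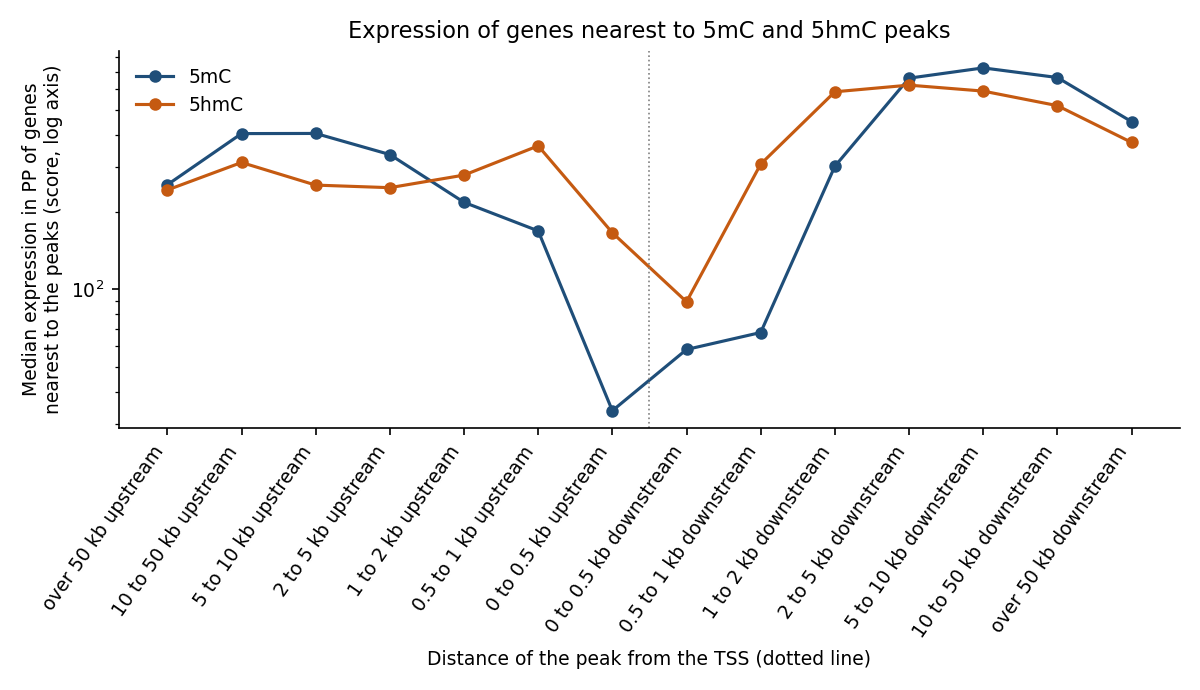
Median expression in PP (score, log axis) of the genes nearest to 5mC (blue) and 5hmC (orange) peaks, by the distance of the peak from the TSS (dotted line). The 5mC line falls to 33.8 up to 0.5 kb upstream of the TSS, while the 5hmC line falls to 89.6 up to 0.5 kb downstream, and both are at 519.0 or higher from 2 to 50 kb downstream.

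Of the highest promoter peaks of 5mC, taken up to 2 kb from the TSS, a pair belonged to the predicted gene Gm11400 (12.11 and 8.94), and the others to 3110070M22Rik (10.85), Gm15726 on the X chromosome (9.41) and the small nucleolar RNA gene Snord37 (9.13). Those of 5hmC belonged to Gm11399 (8.13), Gm11400 (7.90), the sweet taste receptor gene Tas1r2 (7.78, expressed at 3.7), Atp2b3, a calcium pump of neurons (7.75, expressed at 17.3 in PP and 955.0 in neurons), and Gm17190 (7.70). The highest of these was similar in the other cell types, with 12.10 in DP and 12.21 in neurons for 5mC of Gm11400.

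By position, 5mC lay more often inside genes and 5hmC more often outside them and over 50 kb from the TSS. Gene bodies, more than 2 kb from the TSS, held 37.5% of the 5mC peaks (95% Wilson interval from 37.1 to 37.9) and 33.1% of the 5hmC peaks (32.7 to 33.5), and the share was higher for 5mC on all 20 chromosomes. Distal regions lay outside a gene and more than 50 kb from its TSS, so past the end of a long gene they can be close to it. They held 17.3% (17.0 to 17.6) and 24.8% (24.4 to 25.2), with the higher share in 5hmC on all 20 chromosomes. Promoters held 6.14% (5.94 to 6.34) and 6.63% (6.41 to 6.86), and the share was higher for 5mC on 7 of the 20 chromosomes. The intervals cover counting error only, and neighbouring peaks are not independent. The levels differed little by position. The median percentile of 5mC was 51.5 in gene bodies, 51.2 at promoters, 49.8 in flanks from 2 to 50 kb and 47.3 in distal regions, and that of 5hmC was 48.0, 51.4, 51.0 and 50.9.

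Along genes the percentile of 5mC was higher towards the end, while that of 5hmC was lower over all genes but not within the groups of highest or lowest expression. Peaks were placed by their distance from the TSS over the RefSeq gene length, which was known for 89.1% of the 22151 5mC peaks and 89.8% of the 17176 5hmC peaks inside genes. In the first, middle and last part of equal length, 5mC held 45.9%, 35.6% and 18.6% of its placed peaks, and 5hmC held 56.1%, 31.3% and 12.6%. The median percentile of 5mC was 48.8 in the first part, 52.9 in the middle and 56.3 in the last, whereas that of 5hmC was 49.4, 47.1 and 45.4. In the genes of the highest 10% of expression, 5mC went from 47.4 over 55.5 to 60.1, and in those of the lowest 10% from 46.8 over 50.8 to 52.9. 5hmC in the most expressed genes stood lower in each part (45.5, 44.2 and 46.4) than in the least expressed (52.4, 50.5 and 53.3), and in both groups its last part was the highest.

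The X chromosome stood apart in where its 5mC peaks lay. In female cells a copy of it is inactivated, and CpG-rich promoters of the inactive copy are known to be methylated. The sources used here do not give the sex of the embryos. Of the 799 5mC peaks on the X chromosome, 107 lay within 0.5 kb of a TSS, or 13.4% (95% Wilson interval from 11.2 to 15.9), against 814 of 54286 (1.499%, from 1.40 to 1.61) on the autosomes, where the share per chromosome ranged from 0.813% to 2.56%. For 5hmC the shares were 41 of 1009 peaks, 4.06% (3.01 to 5.47), and 634 of 46469, 1.36% (1.26 to 1.47), with a range over the autosomes from 0.593% to 2.48%. These shares also depend on how many peaks a chromosome has elsewhere. Counted by promoter windows, 5mC covered 22 of 1220 on the X chromosome (1.80%) and 223 of 31365 on the autosomes (0.711%). For 5hmC the order was the other way, with 8 of 1220 (0.656%) and 275 of 31365 (0.877%). The 103 X-linked genes with 5mC within 0.5 kb of the TSS had a median expression of 301.5, and 36 of them (35.0%) were expressed over 1000, against 33.8 and 9.81% for the 775 autosomal genes. The peaks themselves were lower on the X chromosome, with a median percentile of 38.6 against 58.4 on the autosomes.

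Among these X-linked genes, named here after their values were seen, Morf4l2, a chromatin gene expressed at 9724 in PP, had 5mC at 6.24 (DP 6.29, neurons 6.29) 342 bp upstream of its TSS. Uba1, the ubiquitin-activating enzyme, expressed at 24720, had 3.85, 3.82 and 4.17 at 39 bp, and Tmsb4x, an actin-binding thymosin expressed at 18209, had 3.86, 3.96 and 4.72 at 113 bp. Pcdh19, a protocadherin of neural progenitors, had 5.95 in 5mC at 217 bp and 5.75 in 5hmC at 223 bp. Hdac6, a cytoplasmic deacetylase whose sequence is shown above, had 5.76 in 5mC and 5.99 in 5hmC at its TSS with 15 CpG in the 237 bases covered by 5mC. Usp26, a testis gene expressed at 2.5, stood at 7.10, so that the X-linked genes with 5mC at their start included both highly and hardly expressed ones. The covered X-linked windows were also richer in CpG. Of 22 with 5mC, 8 held more than 20 CpG (36.4%), against 3 of 223 on the autosomes (1.35%). Of the windows with 5hmC it was 0 of 8 on the X chromosome and 19 of 275 (6.91%) on the autosomes. Over all positions the median level on the X chromosome was 4.91 in 5mC (percentile 43.3) and 4.83 in 5hmC (percentile 57.0). In 5hmC it was lower in the later cell types, at 4.73 in DP and 4.59 in neurons, where the autosomes stood at 4.72, 4.71 and 4.75.

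**Figure D2:**
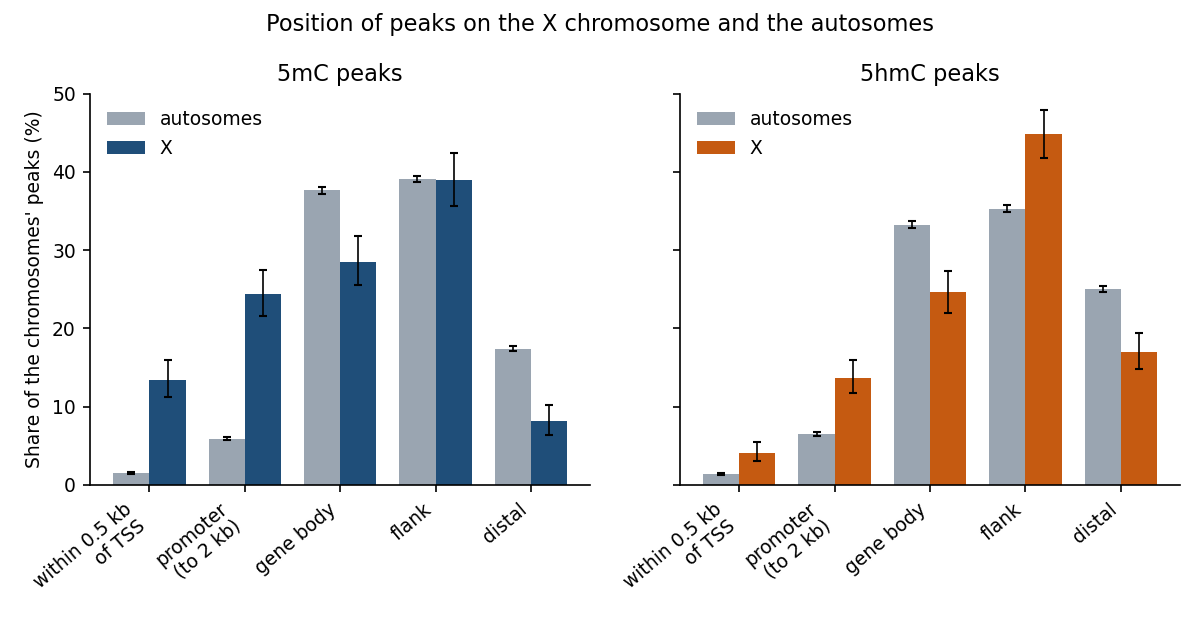
Share of the peaks (%) of the X chromosome (coloured) and of the autosomes (grey) in each position, for 5mC (left) and 5hmC (right), with 95% Wilson intervals as error bars. The promoter class, up to 2 kb from the TSS, contains the peaks within 0.5 kb, and 5mC within 0.5 kb of the TSS makes up 13.4% of the X-linked and 1.499% of the autosomal peaks.

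At the level of genes, 16293 had a peak of some kind, of which 10916 (67.0%) had both marks, 3445 (21.1%) only 5mC and 1932 (11.9%) only 5hmC. Genes with only 5mC had a median expression of 637.5, those with both 433.6 and those with only 5hmC 302.4. The gene was ranked by its highest peak. Spearman's rho between the ranks of both marks was 0.17 over the 10916 genes and lay between 0.064 and 0.30 on each of the 20 chromosomes. Of these genes, 1081 (9.90%) were in the highest 25% of genes in both marks, where 28.2% were in that of 5mC, 27.0% in that of 5hmC, and the product of both shares is 7.61%. This likeness went with the number of peaks, which are counted for the same genes and correlated with each other (rho of 0.54) and with the highest level (0.55 in 5mC and 0.55 in 5hmC). With the mean over the peaks of a gene the rho was -0.019, with the peak closest to the TSS -0.012, and over the 1133 genes with a single peak of each mark -0.032.

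The genes with the highest 5mC peak in PP had, but for Pak3, similar levels in every cell type. Gm11400 led with 12.11 (DP 12.10, neurons 12.21), followed by AY036118 (11.40, 11.46 and 11.40), 3110070M22Rik, Cdk5rap2, Gm11399, Sfi1, Gm11668, Gm6020, Dpy19l1 and Pak3. Cdk5rap2, a centrosome gene whose loss causes microcephaly, stood at 10.81, 10.82 and 10.91 at chr4:70378137-70378238, inside the gene 32255 bp from its TSS. Pak3, a kinase of neurons, stood at 9.52 (DP 9.90, neurons 7.73). The highest 5hmC peak was at the same place in Cdk5rap2, with 10.42, 10.33 and 10.10, then came Gm11400 (9.86), Chit1 (8.72), Btg2 (8.71), S1pr3 (8.63), 2610002J02Rik, Fcgr3, Sh3tc2, Oas2 and Moxd1. Several of these are genes of immune or other cells with little expression in PP, such as the chitinase gene Chit1 at 3.2, the Fc receptor gene Fcgr3 at 12.4 and Oas2, an interferon-induced gene, at 5.7. Whether the copy number of these regions moves with their levels was not tested, since no input signal is given.

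The genes that differed most in rank between the marks were these. With 5mC high and 5hmC low were Snord37 (5mC at percentile 99.9 and 5hmC at 0.023 of the genes), Klhdc5, Prepl, Paqr9, Apobec2, Gm15696, Arl5b, Pabpc1l, Bcl2l12 and Gm15483. At Snord37 both peaks covered the same site 0.8 kb upstream, with levels of 9.13 and -0.05. In the opposite direction stood Hmg20b, Dusp15, Gm11523, Dsc2, Lair1, Dysf, Gfi1, Gm12408, C1ra and Phf21a. Hmg20b and Phf21a are both known as parts of the LSD1-CoREST complex, which represses neuronal genes. Hmg20b had 5mC at 4.10 (percentile 2.56) and 5hmC at 7.31 (97.7) at an expression of 2993. Phf21a had 4.42 (6.87) and 7.49 (98.5) at 6707.

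Lists of genes chosen for the tissue were then read against all genes, of which 25% are by definition in the highest 25% of 5mC and 25% in that of 5hmC. By the highest peak of a gene, 18 of 26 long synaptic genes were in the highest 25% of 5hmC, with a median percentile of 80.8, and the Wnt and Shh pathway had 14 of 25 with a median of 76.8. Radial glia and progenitor genes had 8 of 15 with a median of 77.4. In 5mC the same lists had 7 of 24 (median percentile 54.1), 7 of 25 (48.4) and 5 of 13 (46.7). Cell cycle and replication licensing genes had a median of 31.3 in 5hmC and 48.8 in 5mC, and 5 of 19 and 5 of 24 in the highest 25%, shares near that of all genes. The number of peaks was not alike, with a median of 13.5 5hmC peaks for the long synaptic genes, 7 for the Wnt and Shh list and 2 for all genes. By the mean over the peaks of a gene, only 3 of 26 long synaptic genes were in the highest 25% of 5hmC (median 55.1), 9 of 25 of the Wnt and Shh pathway (65.7), 4 of 15 progenitor genes (44.7) and 3 of 19 cell cycle genes (41.6, against 44.8 in 5mC). The long synaptic genes then ranked below the Wnt and Shh pathway, the cytosine methylation list (65.1) and the Hox genes and polycomb targets (75.7).

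Of the long synaptic genes, Rbfox1, a splicing factor of neurons, had 67 peaks of 5hmC and 29 of 5mC, with the highest at 7.30 (percentile 97.7) and 6.92 (86.2). Nrxn3, a presynaptic adhesion gene, had 7.13 in 5hmC (96.6) and 7.11 in 5mC (90.1). Opcml and Csmd1 had 5hmC at 6.82 and 6.75, above 93.3% of the genes, and 5mC at 5.10 and 5.08, near percentile 25.2 and 24.7. The median expression of the list in PP was 365.5, against 454.7 for all genes, and ranged among these genes from 53.6 for Rbfox1 to 1551 for Csmd1. In the Wnt and Shh list, Wnt7b, a ligand of the cortex, had 5hmC at 7.24 (97.3) and 5mC at 5.22 (29.4), and the receptor gene Fzd9 had 7.14 (96.6) and 4.79 (15.8). Gli2, a transcription factor of Shh signalling expressed at 9515, had 20 peaks of 5hmC with the highest at 6.83 (94.2) and 5mC at 5.65 (45.0). Shh itself, expressed at 0.4, had 5hmC at 7.49 (98.5) in a peak at -264511 bp from the TSS.

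Of the progenitor genes, Sox2 was surrounded by 24 peaks of 5mC and 22 of 5hmC, all assigned to it by distance, with the highest at 7.27 (92.8) and 6.24 (86.0). Pax6 had a 5mC peak at 5.70 (46.7) and 5hmC up to 4.51 (14.9), and Nes had no 5mC peak and 5hmC up to 4.90 (32.4). Ccnd1, the cyclin of the G1 phase, had 5hmC at 7.94, above 99.7% of the genes, and 5mC at 5.44 (37.2), both about 159 kb upstream. Of the genes of the replication licensing helicase, Mcm2, Mcm4, Mcm6 and Mcm7 had 5mC but no 5hmC peak. They were at percentiles 54.8, 11.3, 3.99 and 3.08 of 5mC. Mcm3 and Mcm5 had both marks, at percentiles 76.8 and 19.2 of 5mC and 36.3 and 43.1 of 5hmC. Cdk4, expressed at 18374, had its only peak in 5mC, at 4.01 (1.81). Actb, expressed at 82463, had 5mC at 5.74 (48.1) and 5hmC at 2.72 (1.12) inside the gene.

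Notch pathway genes had 8 of 20 in the highest 25% of 5hmC (median percentile 65.9) and 4 of 21 in that of 5mC (41.7). The inhibitors Numb and Numbl stood apart between the marks, with 5hmC at 5.99 and 6.10 (percentiles 80.4 and 82.9) and 5mC at 3.93 and 4.99 (1.27 and 21.9). Notch1, expressed at 62846, had 5.56 in 5mC (41.7) and 4.61 in 5hmC (18.6), and Notch3 had 6.26 (66.6) and 4.51 (14.8). Cortical neuron genes had 4 of 13 in the highest 25% of 5mC with a median of 71.1 and 3 of 12 in that of 5hmC with 61.1. Genes of intermediate progenitors had 1 of 10 and 3 of 10, with medians of 53.0 and 64.3. The reporter genes, whose surroundings are described below, entered these counts. They were Btg2 among the intermediate progenitor genes (99.9 in 5mC and 99.97 in 5hmC) and Tubb3 among the cortical neuron genes (93.6 in 5mC). In the list for cytosine methylation, 1 of 11 and 3 of 10 were in the highest 25%, and Dnmt3a was at percentile 1.93 in 5mC and 81.1 in 5hmC, whereas Dnmt1 was at 45.1 and 16.5. The housekeeping genes had 4 of 9 and 3 of 12, with medians of 71.3 and 32.9. These medians depended on the use of the highest peak. By the mean over the peaks of a gene, the Notch list had 3 of 20 in the highest 25% of 5hmC (median 29.6) and 7 of 21 in that of 5mC (40.4), so that the order of the marks turned. The 5hmC medians by the mean were 26.2 for cortical neuron genes, 29.4 for intermediate progenitors and 61.1 for housekeeping genes, and the 5mC medians 49.7, 53.2 and 70.0.

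**Figure D3:**
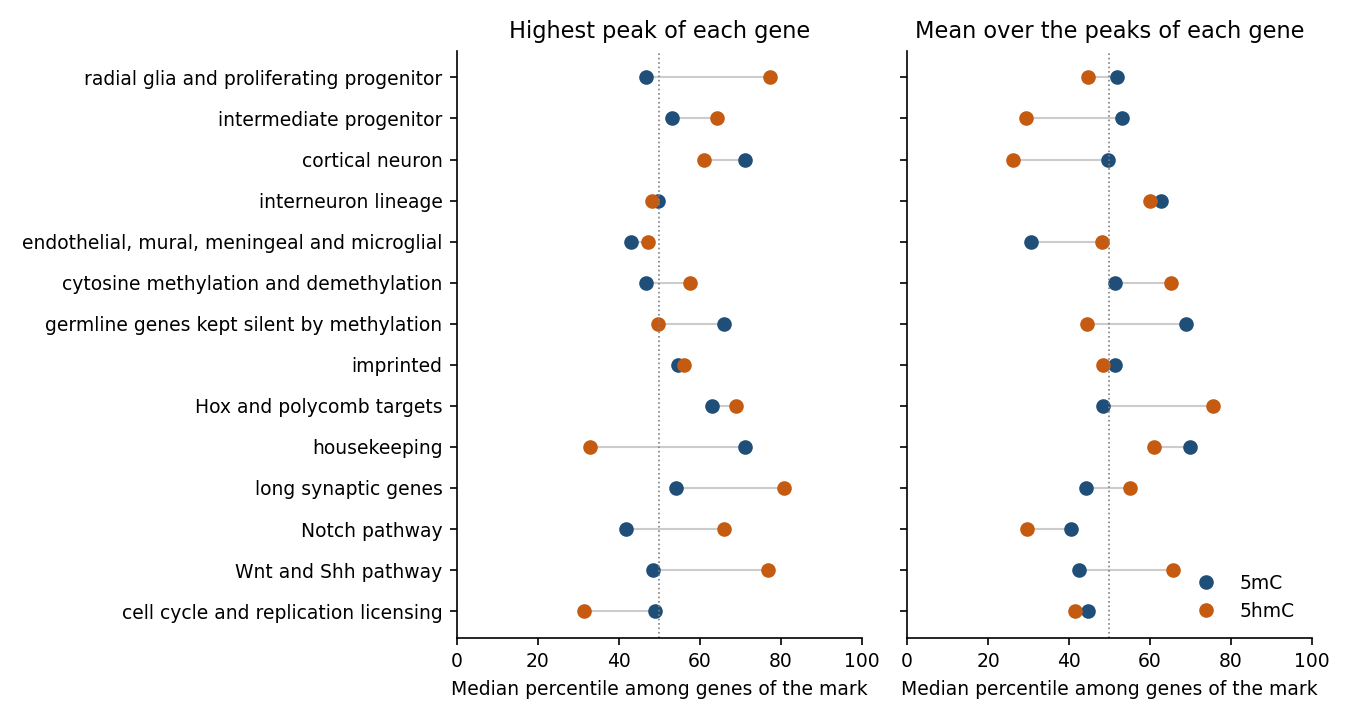
Median percentile of the genes of each list among all genes of the mark, for 5mC (blue) and 5hmC (orange), by the highest peak of each gene (left) and by the mean over its peaks (right), with the dotted line at 50. By the highest peak, long synaptic genes reach 80.8 in 5hmC and 54.1 in 5mC, and by the mean 55.1 and 44.2.

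Within gene bodies, the level had a weak relation to expression that was opposite in sign for the 2 marks. Over the 20650 5mC peaks of gene bodies Spearman's rho with the expression of the gene in PP was 0.050, positive on 18 of 20 chromosomes, and over the 15702 5hmC peaks it was -0.061, positive on 1 of 20. Peaks of a gene share its expression, so the points are not independent. The level is that of called peaks and leaves out how many peaks a gene has. From the lowest to the highest 10% of expression, the median percentile was 49.6 and 53.4 in 5mC and 53.1 and 43.6 in 5hmC. Per gene, over all positions, the rho of the highest level with expression was 0.025 over 14361 genes in 5mC and -0.024 over 12848 in 5hmC.

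Most peaks of either mark did not overlap a peak of the other. The overlap of peaks placed without regard to each other was not worked out, so whether the marks lie together more or less often than that was not tested. Of the 5mC peaks 12.2% overlapped a 5hmC peak by 1 bp or more, and of the 5hmC peaks 14.2% overlapped a 5mC peak. The nearest peak of the other mark was a median of 6377 bp from a 5mC peak and 5584 bp from a 5hmC peak, and 62.5% and 63.8% had it within 10 kb. At the 6727 overlapping pairs the levels in PP were almost unrelated, with a rho of -0.054 and values between -0.16 and 0.036 over the chromosomes. In DP and neurons the rho was -0.020 and -0.038. Shared 5mC peaks had a median percentile of 56.7, against 49.2 for those without 5hmC. Shared 5hmC peaks had a median of 45.0 and spread to both ends, with quartiles at 13.6 and 77.5, where those without 5mC had 26.8 and 74.6.

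The share of overlapping peaks was related to the level in a way that differed between cell types. A peak low in a cell type had to be called in some cell type to be listed. The lowest bin of a cell type can thus hold peaks listed for their signal in others. How far this selection makes the difference between cell types was not tested. Of the 5hmC peaks in the lowest 10% in PP, 29.1% overlapped a 5mC peak (95% Wilson interval from 27.9 to 30.4), against 9.31% (8.52 to 10.2) in the fifth of 10 equal bins and 18.4% (17.3 to 19.5) in the highest. Ranked by their level in neurons, the same peaks had 6.13% in the lowest 10%, 12.4% in the fifth bin and 27.5% in the highest. For 5mC the share in PP was 11.2% in the lowest and 17.9% in the highest 10%, and in neurons 21.2% and 14.4%. The 1383 pairs with 5hmC in the lowest 10% in PP, chosen by that value, had 5hmC at a median of 2.77 (DP 3.63, neurons 4.81). Their 5mC had a median of 5.26 (DP 5.13, neurons 4.46). Of these pairs 40.6% lay in gene bodies. Over all shared pairs 38.2% lay in gene bodies and the 5mC median in PP was 5.21 (DP 5.15, neurons 4.82). Their 5hmC median was 4.64 (DP 4.75, neurons 5.06). The chosen pairs were thus close to all pairs in gene body share and in PP 5mC. In neurons both of their medians were lower than those of all pairs.

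**Figure D4:**
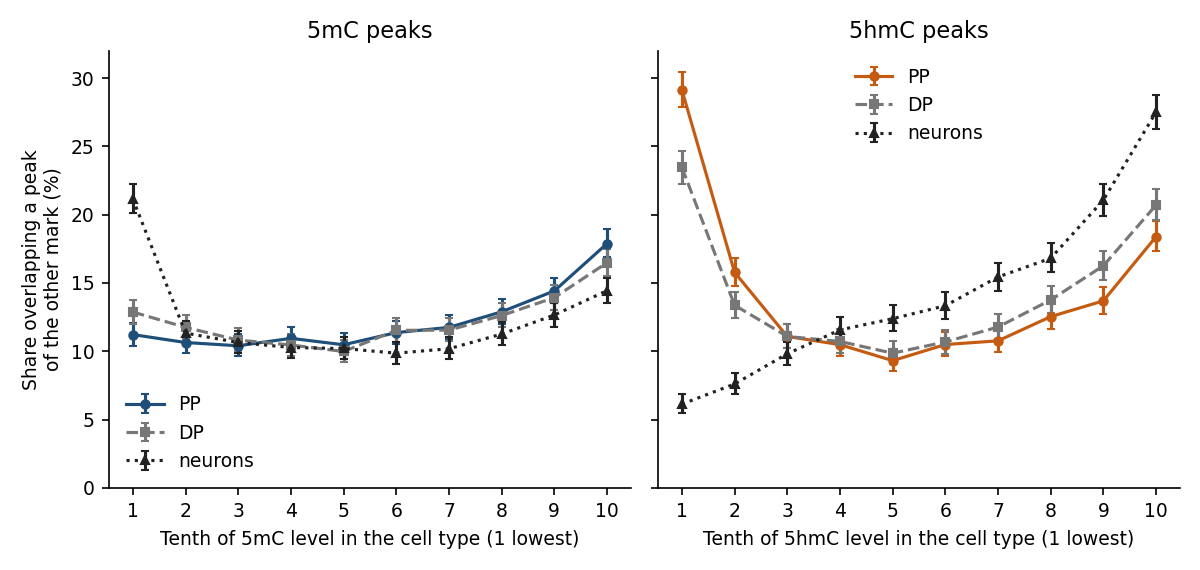
Share of 5mC peaks (left) and 5hmC peaks (right) that overlap a peak of the other mark (%), in 10 equal bins of the level in each cell type (PP, DP and neurons), with 95% Wilson intervals as error bars. For 5hmC the PP line has its highest value, 29.1%, in the lowest bin, while the line of neurons goes from 6.13% to 27.5%. A peak low in a cell type had to be called in some cell type to be listed.

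At 142 pairs (2.11%) both marks were in the highest 10% of their peaks, where the product of the separate shares is 1.90%. The pairs highest in both lay at Cdk5rap2, Chit1, Aanat, Gm11668, Kdm4b, Vstm2l, Jph2, 4930556N08Rik, Dpy19l1 and Sfi1. Kdm4b, a histone demethylase expressed at 4791 in PP, had 7.79 in 5mC and 7.13 in 5hmC inside the gene. At Vstm2l, 690 bp inside the gene, 5mC was 8.22 (DP 7.67, neurons 5.71), while 5hmC was 7.07, 7.47 and 7.69.

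At 192 pairs 5mC was in the highest and 5hmC in the lowest 10%, or 2.85% of the pairs where the product is 3.01%. Those furthest apart lay at Pak3, Snord37, Atf2, Tmem108, Dusp4, Sncaip, Hs3st2, Arhgap10, 1110012J17Rik and Casd1. At 8 of these 10, that is without Pak3 and Snord37, 5hmC was higher in DP than in PP and higher in neurons than in DP. The pairs were chosen for low 5hmC in PP, and a peak had to be called in some cell type to be listed. Higher values in another cell type follow largely from that choice. Atf2, a stress-responsive transcription factor, had 5hmC at 0.91 (DP 4.56, neurons 6.37) and 5mC at 8.26, 8.25 and 7.22. Tmem108 had 0.34, 3.27 and 5.64 in 5hmC and 7.56, 7.18 and 6.17 in 5mC. Pak3 had 5hmC at the lowest level, -0.05, in both PP and neurons and at 8.57 in DP. In the opposite direction the pairs lay at Gm13161, Dhcr7, Smap1, Kcnj5, Atg5, Arhgap40, Smoc2, Ece1, Gfi1 and Rhob. At Dhcr7, an enzyme of cholesterol synthesis, 5mC was 3.51, 2.77 and 3.76 and 5hmC 7.66, 7.48 and 7.55. At these sites 5hmC was high in all cell types, between 6.42 and 7.66 in each, and between 6.42 and 7.55 in neurons.

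Compared with the other cell types, the ranks of PP were closer in 5mC than in 5hmC over all peaks and at the high end, but not for the lowest peaks in DP. Of the 5mC peaks in the highest 10% in PP, 87.9% were also in the highest 10% in DP and 84.9% in neurons, and rho over all peaks was 0.90 and 0.86. For 5hmC it was 83.3% and 68.6%, with rho of 0.84 and 0.55. Of the 4748 5hmC peaks in the lowest 10% in PP, 60.1% were in the lowest 10% in DP but only 4.17% in neurons, where their median level was 4.69 and that of all peaks 4.75. Of the lowest 5mC peaks 40.5% and 37.0% were in the lowest 10% in DP and neurons. The PP values are in both sides of these comparisons, and a peak low in PP had to be called in some cell type to be listed.

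Levels were high around the reporter genes, for both marks at Btg2 and for 5mC at Tubb3. Of the 31 peaks of 5hmC within 100 kb of Btg2 (chr1:134074865-134079155), 13 were in the highest 10% in PP (41.9%) and the median percentile was 86.7, against 32.4 for 23 peaks from 100 to 300 kb away. For 5mC it was 14 of 29 (48.3%) and a median of 88.7, against 59.1 for 21 peaks further out. Around Tubb3 (chr8:123411553-123422015), 24 of 41 5mC peaks (58.5%) were in the highest 10%, with a median of 94.7 against 59.6 for 42 peaks further out, while for 5hmC it was 4 of 23 (17.4%) and a median of 62.0, against 49.2 for 9 peaks further out. Among windows of the same kind around all RefSeq genes with at least 10 peaks, 32 of 15919 reached the 5mC median of Btg2 and 13 that of Tubb3, and 59 of 9294 reached the 5hmC median of Btg2 but 2162 (23.3%) that of Tubb3, where neighbouring windows share peaks. These windows were chosen after the values of Btg2 were seen. The high peaks of Chit1 lie in the window of Btg2. At Btg2 the 5mC peak 254 bp inside the gene had 8.61 (DP 8.13, neurons 8.22), and the 5hmC peak at -4188 bp had 8.71, 8.89 and 9.14. How the reporters were inserted is not given in the sources used here, and whether the insertion or its copy number moves with these levels was not tested.

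**Figure D5:**
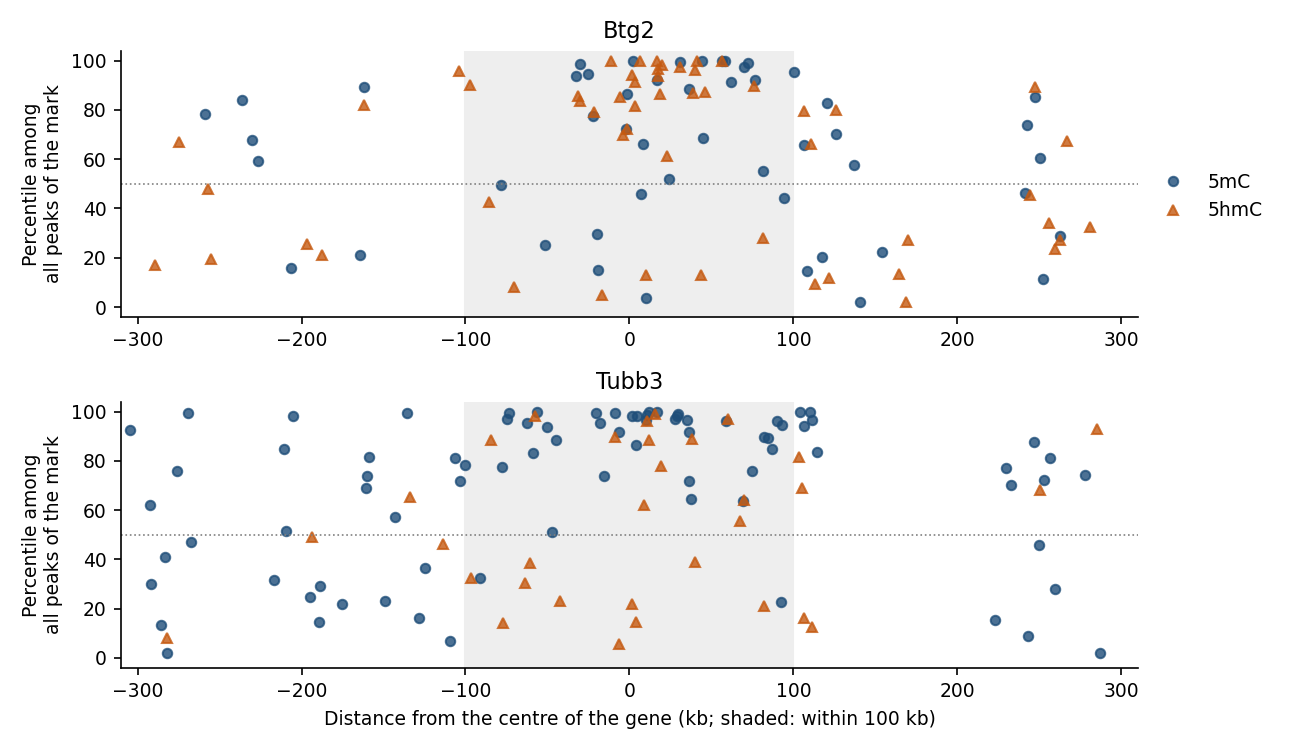
Percentile in PP of each 5mC peak (blue circles) and 5hmC peak (orange triangles) among all peaks of its mark, by distance (kb) from the centre of Btg2 (top) and Tubb3 (bottom), with the range within 100 kb shaded and 50 dotted. In the shaded range the medians are 88.7 (5mC) and 86.7 (5hmC) at Btg2 and 94.7 and 62.0 at Tubb3.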

How the data were processed

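The authors aligned reads to mm10 with BWA 0.7.8-r455, called peaks with SICER 1.1, merged those found in all replicates of a cell type, left out peaks over repeats, and annotated the nearest TSS with HOMER 4.7, per the labels and the paper's methods. The deposited levels are log2 of a DiffBind (TMM) read level, averaged by the authors over 3 replicates, not per bp, with no counts, so depth and counting error per peak are unknown. The deposited expression is a score on an unnamed scale, which the authors took from earlier RNA-seq. The deposited folds, p-values and expression changes of the authors were not used.

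All rows were kept. Levels were ranked within each mark. Promoters reached 2 kb from the TSS, and gene bodies lay inside genes beyond that. Flanks lay outside genes up to 50 kb from the TSS, and distal regions further from it. Peaks of both marks were paired from an overlap of 1 bp. A gene took its highest peak and, for symbols that stand for several genes, the expression of the first row. Named genes were the 10 with the highest peak in each mark, the 10 genes and 10 shared peaks with the largest percentile difference in each direction, the 10 shared peaks highest in both, the 5 highest promoter peaks, and listed genes; symbols for several genes were left out. Members and lists were chosen with earlier results of these data known. No test was possible without replicate values. The steps were tested on simulated data. Promoter sequences and gene lengths came from RefSeq (GRCm38.p6, the assembly of mm10). Python 3.11.15, pandas 2.3.3, numpy 2.4.6, scipy 1.17.1 and matplotlib 3.10.9 were used. Alternatives were other gene levels, positions, overlaps, widths and chromosomes.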

Additional observations from a re-analysis of the deposited data

How the results depend on the processing

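Levels were also taken per bp, on autosomes only and without repeated rows. No replicate could be left out, since the tables hold means. Over the results that lead a comparison, 86 values under an alternative stayed within the spread over the chromosomes, the binomial interval or 1.5 times the count, 32 moved and 4 turned in sign. The rho between the marks over genes was -0.019 with the mean level of a gene, -0.012 with the peak closest to the TSS, -0.032 for genes with a single peak in each mark and 0.099 with peaks inside the gene or within 10 kb. The share of genes in the highest 25% of both was 6.24%, 6.42% and 0.971% under the first 3 of these. Genes with a single peak were still ranked among all genes, whose highest level rose with the number of peaks. Few of them can thus be in the highest 25% of either mark. The shares of each mark alone are not given for these settings, so the 3 values do not show a loss of overlap. The rho of the highest level with expression over genes was 0.068 in 5mC and 0.0021 in 5hmC with peaks inside or within 10 kb. With promoter windows of 1 and 5 kb the promoter shares were 2.99% and 16.0% in 5mC and 3.21% and 14.8% in 5hmC, so that their order turned at 5 kb, and the gene body shares were 39.0%, 32.7%, 34.8% and 29.2%. On autosomes only the 5mC promoter share was 5.87%. With an overlap of at least 50% of both peaks, 24.2% of the lowest 10% and 7.10% of the middle 5hmC peaks were shared. Among genes expressed at 10 or more, the median expression next to the TSS was 168.0 for 5mC and 459.3 for 5hmC. In the highest 10% of genes in place of 25%, progenitor, long synaptic, Wnt and Shh and cell cycle genes numbered 2, 4, 2 and 2 in 5mC and 4, 9, 7 and 3 in 5hmC. By the mean level of a gene, 3 long synaptic and 3 Wnt and Shh genes were in the highest 25% of 5mC, and 4, 3, 9 and 3 genes of the 4 lists in that of 5hmC. Alternatives for DP and neurons and for the promoter overlap were chosen after seeing the data. CpG content was read for promoter windows only. No paired analysis was possible because the tables hold 1 mean per cell type.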

Other observations

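Lists not described above had the following levels in PP. Of 8 germline genes with 5mC, 3 were in the highest 25% of genes (median percentile 66.1), and of 10 with 5hmC also 3 (49.5). Tdrd1, a gene of the piRNA pathway expressed at 15.2, had 5mC at 7.52 (percentile 95.9), and Slc25a31, a mitochondrial carrier of the testis expressed at 14.7, had a 5mC peak at its TSS with 6.31 (68.1). Of the imprinted genes, 7 of 21 were in the highest 25% of 5mC and 6 of 20 in that of 5hmC, with medians of 54.7 and 56.1. Mest, expressed from the paternal allele at 10957, had its only peak in 5mC, 66 bp from the TSS, at 4.29 (4.81). The 5mC peak upstream of Dlk1 stood at 7.68 (97.3), and the 5hmC peak inside Grb10 at 7.37 (98.0), while H19 had 5hmC at 7.41 (98.2) and 5mC at 4.51 (8.83).

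Of 32 Hox genes and polycomb targets listed, 7 had a 5mC peak and 6 a 5hmC peak, and 1 and 3 of these were in the highest 25%. Pax7, expressed at 0.9, had 10 peaks of 5hmC with the highest at 7.38 (98.1) and 5mC at 5.79 (50). Interneuron genes had 3 of 7 in the highest 25% of 5mC and 0 of 6 in that of 5hmC, with medians of 49.7 and 48.1. Genes of endothelial, mural, meningeal and microglial cells had 2 of 12 and 3 of 14, with medians of 43.1 and 47.2.

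The 105 peaks of 5hmC at the lowest level in PP had a median of 2.71 in DP and 4.59 in neurons. They were chosen by their PP value and had to be called in some cell type to be listed. Of them 30 (28.6%) overlapped a 5mC peak, with a median 5mC percentile of 78.1 in PP. Those with the highest level in neurons lay in Xylt1 (5.94 in neurons, 2.31 in DP) and Fam196a (5.54 and 2.88). A further peak lay in Notch3 (5.00 and 2.97), a receptor gene expressed at 19227 in PP and 176.8 in neurons, and another in Mapk10 (5.11 and 4.15), a kinase expressed at 135.1 and 6100. These genes were named after their values were seen.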
